A study of Mus musculus with 11 samples.

Results

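The enzymes that turn cholesterol into progesterone and oestradiol in ovarian granulosa cells were followed at the level of RNA and of H3K4me3, the trimethylated histone H3 found at active promoters. The 10 genes were chosen by name, as Star, Cyp11a1, Fdx1, Fdxr and Hsd3b1 of progesterone synthesis, Cyp19a1 and Hsd17b1 of oestradiol synthesis, and Akr1c18, Akr1c14 and Srd5a1 of progesterone and androgen reduction. All 10 were present among 24809 gene IDs with RNA counts and among 24541 gene IDs with H3K4me3 counts.

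The tested animals were C57BL/6 mice that had received equine chorionic gonadotropin (eCG) 48 h before, and they were set against untreated C57BL/6 mice (0 h). No gene was altered in either group. In mice eCG acts on the receptor of follicle-stimulating hormone (FSH); RNA libraries are labelled eCG (FSH), and the ChIP protocol names FSH alone. RNA came from cells freed by puncture of the follicles, in 3 libraries at 48 h and 3 at 0 h labelled as postnatal day 21. H3K4me3 ChIP-seq had 2 libraries at 48 h and 2 at 0 h, with no age in the labels. No untreated group was labelled at 48 h, so eCG and elapsed time cannot be told apart. How many animals gave each library is not given in the sources used here, and p-values measure the spread between libraries.

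Steroid synthesis begins when STAR carries cholesterol to the inner mitochondrial membrane, where CYP11A1 cuts off the side chain with electrons passed on by ferredoxin reductase (FDXR) and ferredoxin (FDX1). HSD3B1 converts the pregnenolone formed there into progesterone. Granulosa cells of growing follicles lack most of the enzyme CYP17A1 that makes androgens, and instead aromatise androgens of the neighbouring theca cells to oestrogens with CYP19A1. HSD17B1 then reduces oestrone to the more potent oestradiol. Progesterone is inactivated by AKR1C18, which rises in the corpus luteum of rodents before the end of pregnancy, while SRD5A1 and AKR1C14 act in succession to reduce progesterone and androgens.

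RNA libraries held 12013849 to 26343971 counts in all, and H3K4me3 libraries 11989769 to 17968033. Levels are given in CPM, counts scaled to a common library size, after TMM scaling for library composition. Genes count as called below 0.05 in adjusted p from the edgeR quasi-likelihood fit (Benjamini-Hochberg over all genes tested). Every adjusted p below is of this kind unless another method is named with it. The granulosa label was matched by Foxl2, a transcription factor of granulosa cells, at 422, 546 and 503 CPM at 48 h and 371, 279 and 357 CPM at 0 h. Insl3, a theca hormone gene, was near 0, at 0.0871 to 0.843 CPM at 48 h and 1.06 to 1.48 CPM at 0 h. Cyp17a1, the theca androgen enzyme, was not: it had 1482, 587 and 408 CPM in 48 h replicates 1 to 3 and 1126, 573 and 727 CPM in 0 h replicates 1 to 3.

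RNA of all 10 genes passed the test, 9 with a higher level at 48 h and 1, Srd5a1, with a lower one. Of all 14401 genes tested, 31.8% were called, 16.0% higher and 15.8% lower. The median log2 fold change was 1.24 over the 10 genes and -0.03 over all genes tested. The 10 genes were chosen with earlier results of these data known, so these comparisons with all genes are descriptive and not a test. In all 9 higher genes every 48 h library lay above every 0 h library, as in 22.1% of genes tested, and in Srd5a1 every 48 h library lay below, as in 25.8%; the groups did not overlap in 47.9% of genes tested. In bulk RNA, a changed share of the cells that express a gene and a changed amount of RNA per cell cannot be told apart. When library size was the only scaling, the median of all genes moved to -0.20 and 26.8% of calls were higher in place of 50.2%; relative to the median of all genes, Fdxr stood at 0.47 under either scaling and Fdx1 at 0.68.

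**Figure D1:**
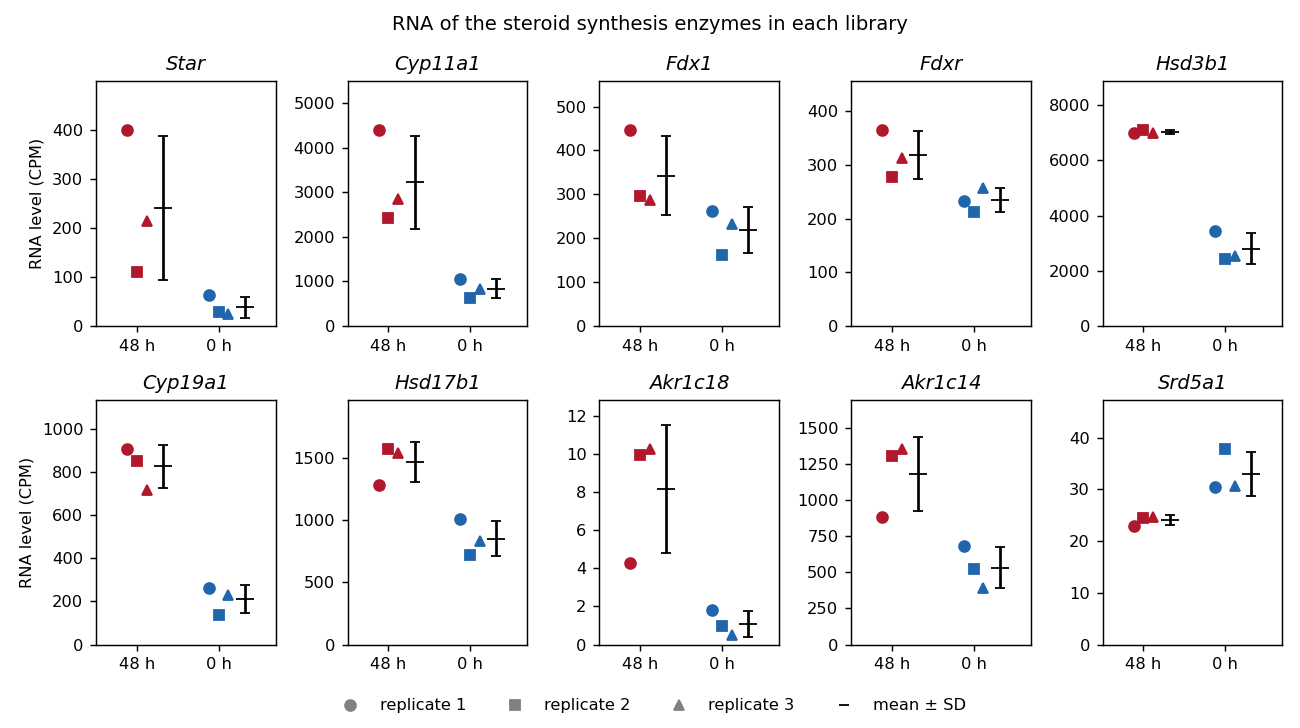
RNA level (CPM, axes from 0) of the 10 genes in each library at 48 h after eCG and at 0 h; symbols mark replicates and the bar gives mean ± SD over 3 libraries. The groups do not overlap for any gene, and the 48 h libraries are spread widely for Star (109 to 399 CPM) and tightly for Hsd3b1 (6985 to 7102 CPM).

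At the entry of the pathway, Star (gene ID 20845; chromosome 8, 25808474 to 25815982, GRCm38.p6) had 399, 109 and 214 CPM in 48 h replicates 1 to 3, against 62.6, 28.4 and 23.6 CPM in 0 h replicates 1 to 3. The groups did not overlap, but the 48 h libraries differed among themselves by 3.65-fold and the 0 h libraries by 2.65-fold. Star rose by 2.66 ± 0.50 (SE) on the log2 scale (adjusted p = 0.00502), a fold change higher than that of 99.4% of genes tested. Its highest library, 48 h replicate 1, was also the library with the most RNA of endothelial and theca markers. Summed levels of 12 endothelial markers were 791, 252 and 313 CPM in 48 h replicates 1 to 3 and 129.7 to 138 CPM at 0 h, and 11 of the 12 rose. Sums of 11 theca markers were 3957, 2113 and 2084 CPM at 48 h and 1858 to 2615 CPM at 0 h, where 1 rose, 3 fell and 7 did not pass. Most of the theca sum came from Cyp17a1, Col1a1 and Aldh1a1, at 1482, 1191 and 782 CPM in 48 h replicate 1. Col1a1 and Aldh1a1 were named after their values were seen, and Aldh1a1 was highest in 48 h replicate 3, at 853 CPM. Without 48 h replicate 1, the log2 fold change of Star was 2.08 (adjusted p = 0.00666).

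**Figure D2:**
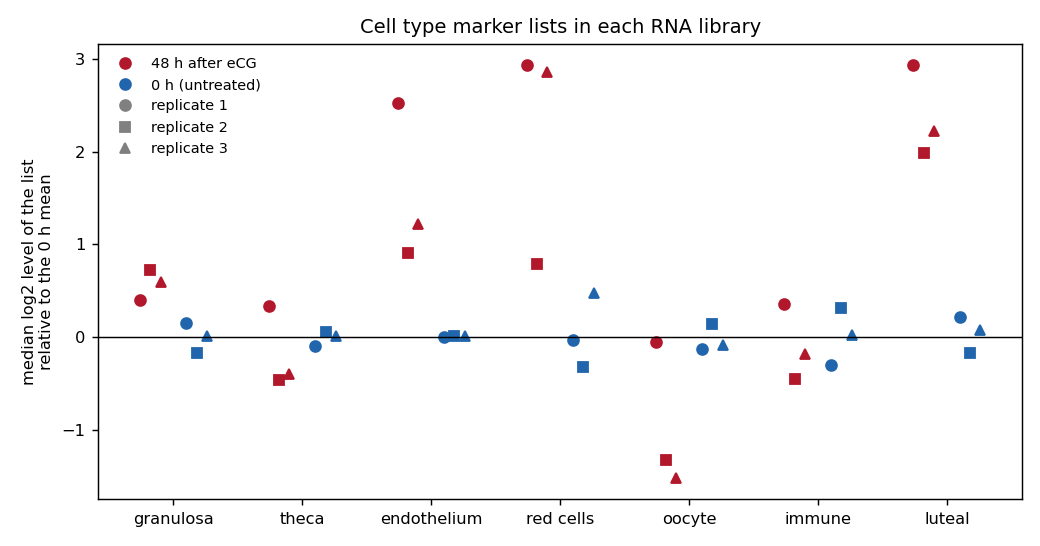
Median log2 level of each cell type marker list relative to its 0 h mean, in each RNA library; symbols mark replicates. For endothelium the values are 2.53, 0.91 and 1.22 in 48 h replicates 1 to 3, and for oocyte markers -0.05, -1.33 and -1.53.

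Cyp11a1 (gene ID 13070; chromosome 9, 57998024 to 58027031) encodes the enzyme of side-chain cleavage. It had 4399, 2417 and 2858 CPM at 48 h and 1064, 623 and 837 CPM at 0 h. The lowest 48 h library thus lay above every 0 h library, and the rise was 1.94 ± 0.26 on the log2 scale (adjusted p = 0.00120), or 1.65 without 48 h replicate 1. The electron carriers moved less. Fdx1 (gene ID 14148; chromosome 9, 51943023 to 51963602) had 447, 296 and 287 CPM at 48 h and 263, 162 and 232 CPM at 0 h. Fdx1 rose by 0.65 ± 0.22 on the log2 scale with an adjusted p of 0.0491, next to the threshold. Without 48 h replicate 1 its log2 fold change was 0.41 (adjusted p = 0.0991), and its call was lost in 6 of 11 alternatives.

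Fdxr (gene ID 14149; chromosome 11, 115268024 to 115277101), which feeds electrons to ferredoxin, had 365, 277 and 312 CPM at 48 h and 234, 212 and 257 CPM at 0 h. It rose by 0.44 ± 0.12 on the log2 scale (adjusted p = 0.0265), a call lost in 4 of 11 alternatives, with a log2 fold change of 0.27 (adjusted p = 0.0914) when library size was the only scaling. Hsd3b1 (gene ID 15492; chromosome 3, 98842356 to 98859794), which makes progesterone, had 6986, 7102 and 6985 CPM at 48 h and 3447, 2429 and 2546 CPM at 0 h. Its 48 h libraries were within 1.02-fold of each other. The rise was 1.32 ± 0.15 on the log2 scale (adjusted p = 6.81e-04), and it was called in all 11 alternatives.

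Hsd3b1 has close relatives, between which short reads can be split by the counting. Of these, Hsd3b4 and Hsd3b5 had no RNA count in any library, and Hsd3b2 and Hsd3b3 had at most 2 counts per library. Hsd3b6, the relative known from mouse testis and adrenal, had 0.785 ± 0.306 CPM at 48 h and 0.912 ± 0.233 CPM at 0 h (SD, n = 3 each; adjusted p = 0.764). Hsd3b7 of bile acid synthesis had 24.1 ± 2.37 CPM at 48 h and 22.4 ± 1.25 CPM at 0 h (adjusted p = 0.494).

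In the oestradiol branch, Cyp19a1 (gene ID 13075; chromosome 9, 54165937 to 54268164), the aromatase, had 909, 852 and 718 CPM at 48 h and 262, 137 and 231 CPM at 0 h. All 48 h libraries exceeded the highest 0 h library, and the log2 fold change was 1.98 ± 0.22 (adjusted p = 6.29e-04). Hsd17b1 (gene ID 15485; chromosome 11, 101077968 to 101081188), which forms oestradiol from oestrone, had 1282, 1573 and 1541 CPM at 48 h and 1004, 718 and 831 CPM at 0 h. It rose by 0.78 ± 0.15 on the log2 scale (adjusted p = 0.00492). Its neighbour Naglu, a lysosomal enzyme gene that begins or ends 296 bp away, rose by 1.07 (adjusted p = 0.00105), and Coasy of coenzyme A synthesis, 1377 bp away, rose by 0.74 (adjusted p = 0.00157).

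Among the enzymes of progesterone reduction, Akr1c18 (gene ID 105349; chromosome 13, 4132615 to 4150646) had few reads, with 56, 248 and 118 counts at 48 h and 28, 20 and 9 counts at 0 h. These were 4.29, 9.92 and 10.3 CPM at 48 h and 1.80, 0.988 and 0.475 CPM at 0 h. In contrast to Star, 48 h replicate 1 was the lowest of its group. The log2 fold change of 2.94 ± 0.48 (adjusted p = 0.00270) was higher than that of 99.5% of genes tested, and it was 3.24 without 48 h replicate 1. Of 8 tested markers of luteal cells, in which AKR1C18 is best known, 7 rose and 0 fell. Their summed levels were 8856, 4872 and 5518 CPM in 48 h replicates 1 to 3 and 1042 to 1230 CPM at 0 h. Within the 48 h group, replicate 1 thus had the highest sum of luteal markers and the lowest level of Akr1c18. The part of these markers in the result for Akr1c18 was not tested.

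Akr1c14 (gene ID 105387; chromosome 13, 4048991 to 4090560), which reduces steroids already acted on by SRD5A1, had 884, 1302 and 1356 CPM at 48 h and 680.3, 525 and 394 CPM at 0 h. It rose by 1.15 ± 0.22 on the log2 scale (adjusted p = 0.00568). Srd5a1 (gene ID 78925; chromosome 13, 69573449 to 69611485), the enzyme of the preceding step, had 23.0, 24.4 and 24.7 CPM at 48 h and 30.5, 37.9 and 30.7 CPM at 0 h. It fell by 0.46 on the log2 scale, with an SE of 0.11 (adjusted p = 0.0139). The call was lost without 48 h replicate 3 (adjusted p = 0.0518) or 0 h replicate 2 (adjusted p = 0.0617).

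Other members of the Akr1c cluster had little RNA, and near-identical copies there can also share reads. Akr1c13 had 6.67 ± 0.740 CPM at 48 h and 4.10 ± 1.48 CPM at 0 h (adjusted p = 0.0803). Akr1c12 had 3 to 10 counts per library at 48 h and 2 to 6 at 0 h, Akr1c19 had 5 to 21 counts at 48 h and 4 to 11 at 0 h, and both were below the filter for testing. Akr1c20 and Akr1c21 had at most 2 counts per library and Akr1c6 had none. Akr1cl stood apart with 1223 ± 65.7 CPM at 48 h and 1341 ± 40.9 CPM at 0 h, a difference that was not called (adjusted p = 0.333). In the Srd5a family, Srd5a3, an enzyme of dolichol synthesis, rose by 0.44 (adjusted p = 0.00731), while Srd5a2 had 0.732 ± 0.298 CPM at 48 h and 1.23 ± 0.0516 CPM at 0 h (adjusted p = 0.133). Akr1d1, a bile acid enzyme of liver, had at most 4 counts per library.

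The balance between consecutive or opposed steps was compared as a log2 ratio of CPM within each library, which, apart from a pseudocount of 0.5 CPM, does not depend on scaling between libraries. The ratio of Hsd17b1 to Cyp19a1 was 0.50, 0.88 and 1.10 at 48 h and 1.94, 2.38 and 1.84 at 0 h. Groups did not overlap, and the 48 h mean was lower than the 0 h mean by 1.23. The ratio of Akr1c14 to Srd5a1 was 5.23, 5.71 and 5.75 at 48 h and 4.46, 3.77 and 3.66 at 0 h, so that the 48 h mean was 1.60 higher. The ratio of Akr1c18 to Hsd3b1 was higher by 1.10, and its lowest 48 h library, at -10.51, lay just above its highest 0 h library, at -10.55. With a pseudocount of 2 CPM in place of 0.5 CPM, this difference was 0.34. For these 3 ratios the two-sided exact permutation test gave p = 0.1, the smallest value that 3 against 3 libraries allow, and 0.167 after adjustment over the 5 pairs.

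The ratio of Star to Cyp11a1 was -3.46, -4.46 and -3.73 at 48 h and -4.08, -4.43 and -5.12 at 0 h, with overlapping groups (exact permutation p = 0.3). That of Fdxr to Fdx1 was -0.29, -0.09 and 0.12 at 48 h and -0.17, 0.39 and 0.15 at 0 h (exact permutation p = 0.4). None of the 5 ratios could pass a threshold of 0.05 in this design. Ratios compare changes between genes and not their amounts, because transcript lengths were not used.

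**Figure D3:**
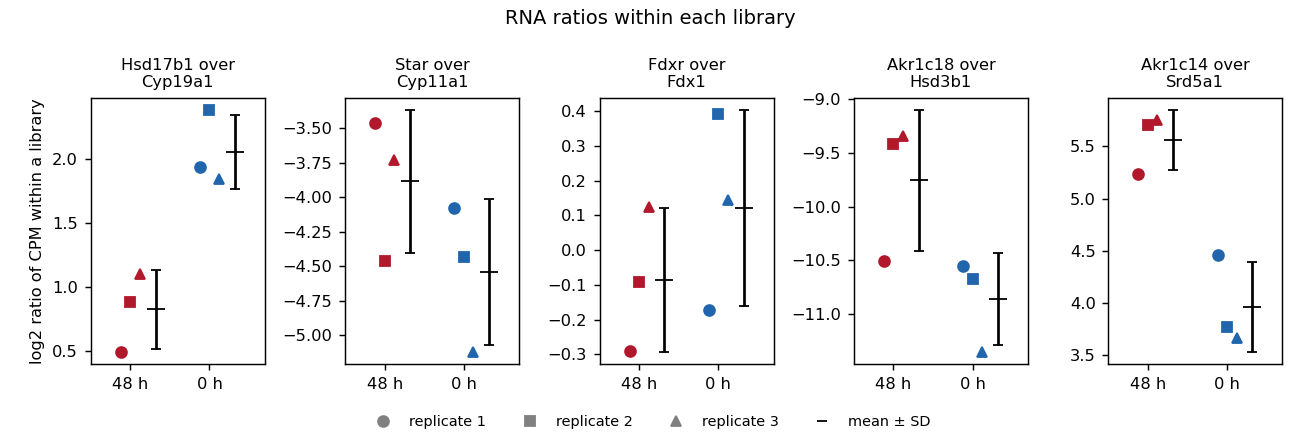
Log2 ratio of the CPM of 2 genes within each RNA library at 48 h and at 0 h; symbols mark replicates and bars give mean ± SD over 3 libraries. The groups are separate for Hsd17b1 over Cyp19a1 and for Akr1c14 over Srd5a1, nearly touch for Akr1c18 over Hsd3b1, and overlap for the other two.

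The wider pathway was read from 8 lists of related genes. Over all genes tested in RNA, 16.0% were called higher and 15.8% lower, and the counts from these short lists are descriptive. Of 11 further genes of cholesterol entry, 5 rose, 1 fell and 5 did not pass. Tspo, an outer mitochondrial membrane protein, rose by 1.38 ± 0.13 (adjusted p = 2.84e-04), Stard4, a cytosolic cholesterol carrier related to STAR, by 1.07, and Soat1, which esterifies cholesterol for storage, by 0.88. Of 4 further electron carriers tested, 2 rose and 0 fell: Cyb5b by 0.58 and Cyb5r3, a cytochrome b5 reductase, by 0.52.

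In the Hsd17b family 3 further genes rose, 1 fell and 3 did not pass. Hsd17b7, which acts in cholesterol synthesis and also reduces oestrone in rodent luteal cells, had 657, 207 and 285 CPM at 48 h and 36.4, 31.6 and 31.3 CPM at 0 h. Its rise of 3.53 ± 0.40 (adjusted p = 6.21e-04) exceeded in fold change each of the 10 enzymes described above, and its highest library was again 48 h replicate 1. Hsd17b12, of fatty acid elongation, rose by 0.96. Hsd17b3, which makes testosterone in testis, fell by 1.16 (adjusted p = 0.0157), at 0.702 ± 0.0158 CPM at 48 h and 1.58 ± 0.142 CPM at 0 h (SD, n = 3 each). In the Hsd3b list, Nsdhl of cholesterol synthesis rose by 1.26 (adjusted p = 2.67e-04) and the other 2 further genes tested did not pass.

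Among 4 tested genes of androgen and corticosteroid synthesis, Hsd11b2, which inactivates corticosterone, rose by 0.47 (adjusted p = 0.0218) and Hsd17b3 fell. Cyp17a1 did not pass (log2 0.03 ± 0.44, adjusted p = 0.967). Of 6 tested genes listed under oestrogen conjugation and hydroxylation 1 rose, Papss2, which makes the sulphate donor, by 0.37 (adjusted p = 0.0299), and 0 fell. That list also holds Sulf2, a sulphatase of heparan sulphate and not of oestrogens.

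Over the 6 RNA libraries, the genes closest to Cyp19a1 in the shape of their log2 levels were Tmem86a (distance 0.38), Gask1b (0.48), Epdr1 (0.51), Slc16a3 (0.52) and Mrap (0.53), among 10070 candidates. Closest to Star were Apol6 (0.98), Rab27a (1.10), Oxtr (1.15), Prlr (1.16) and Dhcr7 (1.17). Closest to Akr1c18 were Gstm6 (1.03), Gabrb2 (1.08), Slc16a3 (1.17), Gsg1l (1.20) and Rhox8 (1.23). The distance is Euclidean, in log2 units, after each gene was centred on its own mean, and it largely follows the difference between the groups.

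For H3K4me3 the same 10 genes fell into a high and a low set. Windows of 5129 genes with no RNA count in any library had a median of 1.56 CPM and a 95th percentile of 17.5 CPM. Hsd17b1, Hsd3b1, Fdx1, Fdxr, Akr1c14 and Srd5a1 lay above that percentile in every library, at 60.1 CPM or more, and Star, Cyp11a1, Cyp19a1 and Akr1c18 lay below it, at 8.40 CPM or less. By the mean of the 4 libraries, only Cyp19a1 and Akr1c18 of the 10 genes lay below the 90th percentile of 4.37 CPM, and Hsd3b1 joined the 4 genes below the 99th percentile of 104 CPM. Near these limits single libraries differed from the mean: Cyp11a1 had 4.07 CPM in 0 h replicate 2, and Fdxr had 94.1 and 97.3 CPM at 0 h. The stretch of DNA counted for each gene is not given in the sources used here.

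**Figure D4:**
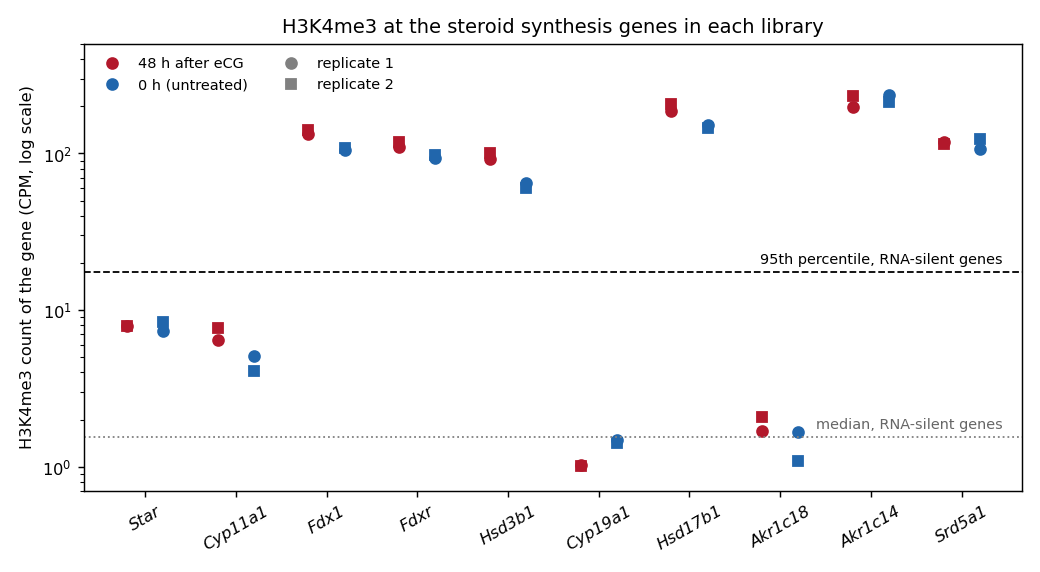
H3K4me3 count of each gene (CPM, log scale) in the 2 libraries at 48 h and the 2 at 0 h; lines give the median (1.56 CPM) and the 95th percentile (17.5 CPM) of genes without RNA counts. Cyp19a1 and Akr1c18 sit at the median of such genes, Star and Cyp11a1 between the lines, and the other 6 genes far above.

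The bases before the RefSeq starts (GRCm38.p6) are shown for genes of both kinds, with CG dinucleotides in capitals, because unmethylated CG-rich promoters generally carry H3K4me3. Each sequence is the 250 bases before a start, 5′ to 3′ on the strand of the gene. Cyp19a1 has 3 listed starts, and aromatase is known to use different first exons in different tissues, so all 3 are given.
Cyp19a1 start 1, chr9:54268165-54268414, minus strand: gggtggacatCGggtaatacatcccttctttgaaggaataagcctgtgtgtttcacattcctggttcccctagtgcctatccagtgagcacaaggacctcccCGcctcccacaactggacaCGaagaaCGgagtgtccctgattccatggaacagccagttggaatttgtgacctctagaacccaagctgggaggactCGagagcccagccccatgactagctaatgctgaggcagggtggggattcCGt
Cyp19a1 start 2, chr9:54228915-54229164, minus strand: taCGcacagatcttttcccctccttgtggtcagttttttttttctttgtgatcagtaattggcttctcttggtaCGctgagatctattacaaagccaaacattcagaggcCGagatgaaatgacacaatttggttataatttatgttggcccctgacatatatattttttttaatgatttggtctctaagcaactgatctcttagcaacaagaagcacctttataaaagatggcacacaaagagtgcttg
Cyp19a1 start 3, chr9:54193744-54193993, minus strand: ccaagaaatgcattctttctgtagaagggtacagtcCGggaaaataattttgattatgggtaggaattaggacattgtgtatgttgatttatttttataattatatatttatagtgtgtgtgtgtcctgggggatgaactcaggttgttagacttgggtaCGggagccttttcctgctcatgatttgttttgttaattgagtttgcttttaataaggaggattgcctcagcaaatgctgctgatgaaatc
Akr1c18, chr13:4150647-4150896, minus strand: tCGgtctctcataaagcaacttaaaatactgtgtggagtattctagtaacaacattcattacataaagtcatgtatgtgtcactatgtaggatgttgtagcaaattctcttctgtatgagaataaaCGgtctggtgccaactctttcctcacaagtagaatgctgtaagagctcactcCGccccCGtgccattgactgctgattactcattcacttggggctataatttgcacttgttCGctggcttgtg
Hsd3b1, chr3:98859795-98860044, minus strand: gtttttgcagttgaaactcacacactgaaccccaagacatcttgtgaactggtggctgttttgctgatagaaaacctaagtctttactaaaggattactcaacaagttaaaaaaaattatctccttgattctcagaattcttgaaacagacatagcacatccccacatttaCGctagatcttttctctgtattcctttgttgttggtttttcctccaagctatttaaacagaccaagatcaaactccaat
Akr1c14, chr13:4059341-4059590, plus strand: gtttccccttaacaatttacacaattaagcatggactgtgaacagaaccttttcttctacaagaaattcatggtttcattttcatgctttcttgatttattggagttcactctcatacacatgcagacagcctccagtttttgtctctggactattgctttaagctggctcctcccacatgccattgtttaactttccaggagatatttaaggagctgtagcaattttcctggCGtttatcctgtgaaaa
Srd5a1, chr13:69611464-69611713, minus strand: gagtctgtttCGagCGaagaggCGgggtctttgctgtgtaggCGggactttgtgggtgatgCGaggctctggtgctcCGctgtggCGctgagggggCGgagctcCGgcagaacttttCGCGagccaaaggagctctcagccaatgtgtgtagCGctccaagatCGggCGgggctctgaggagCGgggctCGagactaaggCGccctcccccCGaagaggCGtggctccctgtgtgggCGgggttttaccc

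The number of CG dinucleotides was 6, 3 and 2 at starts 1 to 3 of Cyp19a1 and 5 at Akr1c18, against a median of 6 over 32851 starts. Hsd3b1 and Akr1c14 had 1 each, although their H3K4me3 was far above that of genes without RNA counts. For Akr1c14 the only listed start lies inside the gene, which begins at 4048991, while the bases shown begin at 4059341. The bases before the outer end of Akr1c14 were therefore not examined. Srd5a1 had 20, Fdxr 13 and Fdx1 8, and the starts of Cyp11a1 had 4 and 1. At these listed starts, the CG number therefore did not separate the genes above the 95th percentile from those below it. Motifs were searched on both strands. The letters TATAAA or their reverse complement TTTATA were found before starts 2 and 3 of Cyp19a1, at start 3 only as TTTATA. Either form was found before no other of the 11 starts of these genes and before 12.4% of all starts. AAGGTCA, bound by the steroidogenic factor NR5A1 and its relative NR5A2, was found before 0 of the 11 starts and before 4.08% of all, and TGACGTCA, the cAMP response element, before 0 and 1.55%. TGACG, which is contained in TGACGTCA, was found before 1 of the 11 (start 1 of Cyp11a1) and 17.8% of all, and CCAAT before 6 and 33.8%. Star and Hsd17b1 had no entry among these sequences.

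H3K4me3 rose at 4 of the 10 genes after eCG, fell at 0 and did not pass at 6. Of 24476 genes tested 8.42% were called, 6.35% higher and 2.08% lower; 75.4% of the calls were thus higher, and 52.3% when library size was the only scaling. The median log2 fold change was 0.32 over the 10 genes and -0.00 over all. As for RNA, this comparison with all genes is descriptive, because the 10 genes were chosen with earlier results known. Groups did not overlap at 6 genes with 48 h above (26.5% of all genes) and at 1 with 48 h below (22.8%), together 49.3% of all genes. Since each group has 2 libraries, these errors and p-values lean on the variation estimated over all genes.

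Hsd3b1 had 92.3 and 101 CPM of H3K4me3 at 48 h and 64.9 and 60.1 CPM at 0 h. This was the largest of the 4 rises, 0.63 ± 0.07 on the log2 scale (adjusted p = 1.65e-08), and it was called in all 9 alternatives. At Hsd17b1 the counts were 185 and 206 CPM at 48 h and 151 and 145 CPM at 0 h (log2 0.40 ± 0.07, adjusted p = 6.00e-05). The neighbours of Hsd17b1 rose to a like extent, Naglu by 0.41 (adjusted p = 1.38e-04) and Coasy by 0.31 (adjusted p = 0.00245). Neither had counts within 20% of those of Hsd17b1 in every library. At 48 h the averages were 60.5 CPM for Naglu, 152 CPM for Coasy and 196 CPM for Hsd17b1. Because the extent of the windows is unknown, whether the 3 genes share signal cannot be told.

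Fdx1 had 134 and 142 CPM at 48 h and 105 and 108 CPM at 0 h (log2 0.37 ± 0.07, adjusted p = 1.79e-04). Without 0 h replicate 1 the call at Fdx1 was lost (adjusted p = 0.0936). Fdxr had 109.6 and 119 CPM at 48 h and 94.1 and 97.3 CPM at 0 h (log2 0.26 ± 0.07, adjusted p = 0.0138). This smallest of the called rises was lost in 5 of 9 alternatives, among them DESeq2 (adjusted p = 0.0652). Without 0 h replicate 1, only Hsd3b1 and Hsd17b1 of the 10 genes were called.

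Akr1c14 and Srd5a1 carried the mark without a called change. Akr1c14 had 197 and 233 CPM at 48 h and 236 and 213 CPM at 0 h (log2 -0.06 ± 0.07, adjusted p = 0.697), whereas its RNA rose. Srd5a1 had 118 and 116 CPM at 48 h and 107 and 123 CPM at 0 h (log2 0.02 ± 0.07, adjusted p = 0.904), whereas its RNA fell. Srd5a1 lies 531 bp from Nsun2, an RNA methyltransferase gene whose H3K4me3 counts were within 20% of those of Srd5a1 in every library, so that signal of the 2 genes cannot be told apart.

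The 4 genes below the 95th percentile, Akr1c18, Star, Cyp19a1 and Cyp11a1, had the largest RNA fold changes of the 10. Cyp19a1 has 3 listed starts and Cyp11a1 has 2, and which of them the counted stretch covers is not given. A low count therefore does not show that the start in use lacks the mark. Cyp19a1 had 17 and 18 H3K4me3 counts at 48 h and 23 and 17 at 0 h, or 1.02 and 1.01 CPM and 1.47 and 1.41 CPM (log2 -0.51 ± 0.38, adjusted p = 0.491). Akr1c18 had 1.68 and 2.08 CPM at 48 h and 1.66 and 1.08 CPM at 0 h (log2 0.42 ± 0.34, adjusted p = 0.532). Without 0 h replicate 1 this log2 value was 0.78, without 0 h replicate 2 it was 0.18 and without 48 h replicate 2 it was 0.26, and none of these passed. Star had 7.86 and 7.86 CPM at 48 h and 7.36 and 8.40 CPM at 0 h, with a log2 difference of 0.00 ± 0.18 (adjusted p = 0.993). Star was above the 90th percentile in every library. Its neighbour Ash2l, 18 bp away, was lower, at an average of 0.963 CPM at 48 h and 1.81 CPM at 0 h, although its RNA averaged 77.9 CPM at 48 h and 82.1 CPM at 0 h, so that a count near the median of genes without RNA also occurred at a gene with RNA. Cyp11a1 had 6.48 and 7.63 CPM at 48 h and 5.12 and 4.07 CPM at 0 h. Its log2 fold change of 0.61 ± 0.21 did not pass (adjusted p = 0.0621). The CV between libraries was 11.6% at 48 h and 16.1% at 0 h for Cyp11a1, and 6.25% at 48 h and 5.39% at 0 h for Hsd3b1.

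**Figure D5:**
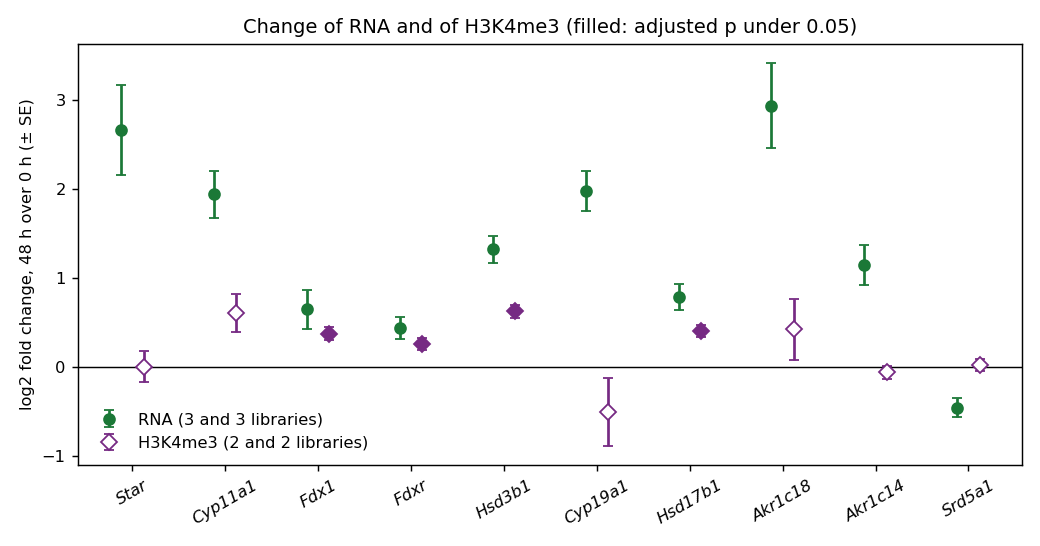
Log2 fold change (48 h over 0 h, ± SE) of RNA and of H3K4me3 for each gene; filled symbols have an adjusted p under 0.05. RNA changes run from -0.46 to 2.94 and H3K4me3 changes from -0.51 to 0.63, and the H3K4me3 symbols are filled at Hsd3b1, Hsd17b1, Fdx1 and Fdxr.

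Around the pathway, H3K4me3 rose at 2 of 11 further genes of cholesterol entry, Stard4 by 0.31 (adjusted p = 0.00661) and Soat1 by 0.22 (adjusted p = 0.0407), whose RNA also rose. Over all genes tested in H3K4me3, 6.35% were called higher and 2.08% lower. At the theca enzyme gene Cyp17a1 the mark fell by 0.79 on the log2 scale (adjusted p = 0.00182), with 6.44 ± 1.21 CPM at 48 h and 11.1 ± 0.00639 CPM at 0 h (SD, n = 2 each), a level below the 95th percentile of genes without RNA counts. Cyp1b1, which hydroxylates oestradiol, fell by 0.21 (adjusted p = 0.0444). Sulf2, a sulphatase of heparan sulphate and not of oestrogens, rose by 0.37 (adjusted p = 2.34e-04). At Hsd17b7, where the RNA fold change exceeded those of the 10 enzymes, H3K4me3 was not called (log2 0.03, adjusted p = 0.872). No further gene of the Hsd3b, Hsd17b, Akr1c or Srd5a families was called in H3K4me3.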

How the data were processed

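Both tables deposited by the authors hold raw counts per Entrez gene ID. The submitters' processing notes name mm10 for both assays, kallisto, sleuth, STAR, Picard and FastQC 0.11.5 for RNA, and ChIPseeker 1.18.0, MACS2 2.2, Bowtie2 2.2.9 and Trimmomatic for ChIP-seq. The sources used here name neither the counting program nor its use of strand, nor the H3K4me3 window per gene. Symbols and coordinates came from RefSeq's GRCm38.p6 gene table, which matched 24742 RNA and 24472 H3K4me3 IDs. The series has 11 samples, and its input DNA library was not used here.

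For each assay, 48 h was tested against 0 h on all genes with edgeR 4.0.16 in R 4.3.3 (quasi-likelihood test, TMM, filterByExpr, no block), after the procedure was tested on simulated data. Log2 ratios used a pseudocount of 0.5 CPM and exact permutation tests (scipy 1.17.1). Between replicates of a group, a chi-square statistic over genes was 5.35 to 40.9 per degree of freedom in RNA and 1.69 and 4.00 in H3K4me3, so each library counted once. All 10 members were named, together with up to 3 called genes with at least 1 CPM per pathway list, all counted genes of the Hsd3b, Akr1c and Srd5a families, and the 5 genes nearest in pattern to Cyp19a1, Star and Akr1c18 with at least 10 CPM; marker genes were counted by list, with Foxl2, Insl3 and Cyp17a1 named. Members and lists were chosen with earlier results of these data known. Alternatives were other scalings, DESeq2 1.42.0, no filter, a replicate block and leaving out each library.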

Additional observations from a re-analysis of the deposited data

How the results depend on the processing

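In RNA, the direction of all 10 genes held in all 11 alternatives, and 98 of 110 gene results kept their side of the threshold; the other 12 lost a call, at Fdx1 (6), Fdxr (4) and Srd5a1 (2). In H3K4me3, 75 of 90 kept direction and side, 6 lost a call (Fdxr 5, Fdx1 1) and 9 reversed, all for genes that were not called. Star reversed to log2 values of -0.0052 with DESeq2 size factors, -0.050 with library size only, -0.0086 with DESeq2 and -0.016 with no filter. Without 1 library Star lay between -0.12 and 0.096, reversed without 48 h replicate 1 (-0.0038) and without 0 h replicate 1 (-0.12). Srd5a1 reversed to -0.029 with library size only and lay between -0.096 and 0.12 without 1 library, and Akr1c14 lay between -0.19 and 0.043.

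With library size only, 26.8% of RNA calls were higher in place of 50.2% (lower calls 4222 in place of 2282), and 52.3% of H3K4me3 calls in place of 75.4% (945 higher and 862 lower). DESeq2 called 611 H3K4me3 genes higher and 253 lower, 864 in all in place of 2062. The replicate block called 908 higher and 1280 in all. Same-numbered libraries did not deviate together (correlations of -0.22, -0.15 and -0.15 in RNA and -0.01 in H3K4me3), so the numbers were not taken as pairs; with the block, 10 of the 10 genes in RNA and 3 in H3K4me3 were called. With a pseudocount of 2 CPM the ratio of Akr1c18 to Hsd3b1 differed by 0.34 in place of 1.10. By their mean H3K4me3, 2 genes lay below the 90th percentile of genes without RNA counts, in place of 4 below the 95th. The cause of these differences was not tested.

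Without 1 library, RNA calls ranged from 2882 to 5345 (1580 to 2697 higher, 1228 to 2648 lower) and H3K4me3 calls from 282, without 0 h replicate 1, to 2764 (159 to 2070 higher, 123 to 694 lower). Of the 10 genes, 7 to 9 stayed called in RNA (7 to 8 higher, 0 to 1 lower) and 2 to 4 in H3K4me3. The H3K4me3 value of Akr1c18 lay between 0.18 and 0.78. The lowest counts per library among the 10 genes were 9 to 28 at 0 h for Akr1c18 in RNA, and 13 to 37 for Akr1c18 and 17 to 23 for Cyp19a1 in H3K4me3; the part of depth in their results was not tested.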

Other observations

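The 10 enzymes together took 1.32% to 1.45% of all RNA counts in the 48 h libraries and 0.533% to 0.728% in the 0 h libraries. Hsd3b1 alone took 0.644% to 0.674% of counts at 48 h and 0.266% to 0.356% at 0 h. By raw count it was the gene of rank 5 in every 48 h library and of rank 7, 11 and 12 in the 0 h libraries.

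RNA of 2 enzymes of corticosteroid synthesis, which are best known from the adrenal cortex, was seen almost only at 48 h, although both were below the filter for testing. They were chosen after their values were seen. Cyp21a1, which makes deoxycorticosterone from progesterone, had 79, 47 and 4 counts in 48 h replicates 1 to 3 and 1, 0 and 1 counts in the 0 h libraries. The depth-corrected ratio was 71.9 (95% interval 19.5 to 599.6). Cyp11b1, which makes corticosterone, had 55, 26 and 7 counts at 48 h and 0, 0 and 1 counts at 0 h, a ratio of 97.3 (17.01 to 3885). These exact intervals cover counting error only and not the spread between libraries, which was 6.06, 1.88 and 0.348 CPM for Cyp21a1 at 48 h.

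Levels of red-cell markers also differed between libraries of a group, with sums of 544, 164 and 685 CPM in 48 h replicates 1 to 3 and 68.5 to 129 CPM at 0 h, although the globin genes Hba-a1, Hba-a2, Hbb-bs and Hbb-bt had no RNA count in any library. Most of these sums came from Alas2, named after its values were seen, at 506, 153 and 649 CPM in 48 h replicates 1 to 3. Oocyte markers summed to 98.2, 37.6 and 38.3 CPM at 48 h and 95.6 to 109 CPM at 0 h. Of 9 immune markers tested 0 were called by edgeR, with sums of 181 to 309 CPM at 48 h and 219.8 to 352 CPM at 0 h. Granulosa markers summed to 43076 to 44687 CPM at 48 h and 17461 to 22374 CPM at 0 h. Most of this came from the inhibin subunit genes Inha, Inhba and Inhbb, named after their values were seen. Of the 11 markers 7 rose, 2 fell and 2 did not pass. Those that fell were Amh (log2 -1.38, adjusted p = 0.0158) and Wt1 (log2 -1.07, adjusted p = 0.00176). The per-library median of the 11 granulosa markers, relative to the 0 h mean, was 0.40, 0.72 and 0.59 on the log2 scale in 48 h replicates 1 to 3. The part of other cells in the results for the 10 enzymes was not tested.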
